A study of Mus musculus with 3 samples.

Results

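Between its binding sites, CAP-D3 left long autosomal stretches with no listed peak in either Rb genotype, and 626 such stretches of 750 kb or more are described here. They were chosen by their length alone, from the positions of the peaks. The peaks of both ChIP libraries were pooled, overlapping peaks were merged, and the distance from the end of each merged peak to the start of the next was taken as a gap. Chromosomes 1 to 19 held 13199 merged peaks and 13180 gaps, of which 4.75% reached 750 kb and are called long gaps below. Since length chose them, their number, length and span are given as a description and carry no test.

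The study profiled CAP-D3 by chromatin immunoprecipitation and sequencing in proliferating primary mouse embryonic fibroblasts at passage 4. One group was wild type (Rb+/+) and the other homozygous for the RbΔL allele (RbΔL/ΔL), whose retinoblastoma protein has a mutated cleft for partners with an LXCXE motif. Each group is 1 library, and input DNA completes the 3 samples, with no values of it analysed here. The number of embryos behind each culture is not given in the sources used here, and the lists hold no gene whose level could check the cell type.

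CAP-D3 belongs to condensin II, a ring-shaped complex that entraps DNA, and is one of its subunits outside the SMC family. Condensin II is known for compacting chromosomes and for its presence in the nucleus through interphase. The retinoblastoma protein binds E2F1 and condensin II, and this complex has been placed at repeats next to centromeres and at other chromatin. Gene-poor parts of mammalian chromosomes, which often lie at the nuclear periphery, are known to hold few sites for many chromatin proteins.

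The Rb+/+ list held 7974 autosomal peaks and the RbΔL/ΔL list 6283, with median widths of 429 and 413 bp. Each peak has a score from the authors' peak caller that ranks peaks within a list, and both lists start at 50.02. The numbers of reads are unknown. A gap holds no listed peak, and signal in it that gave no listed peak was not analysed here. Whether reads could be placed in a gap, and whether it spans unsequenced bases, was not tested. All positions are mm9 and 1-based. Genes in the gaps are not named and no sequence is printed, since no genome or annotation of mm9 was used.

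Long gaps were few among the gaps but made up much of the autosomal sequence. They spanned 775 Mb, which is 32.4% of the 2392 Mb between autosomal peaks and 31.4% of the full autosomal length. Their median length was 1027 kb (quartiles 866 and 1353 kb). The median of all autosomal gaps was 77.7 kb (quartiles 25.7 and 205 kb). The shortest 5 long gaps measured 750.6 to 753.3 kb, and the 5 gaps just under the minimum measured 748.4 to 749.9 kb.

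Peaks placed evenly at random give a known law of gap lengths, and the expected values below come from that formula for each chromosome, with no drawn placements. With the same number of peaks and the same free sequence it gives 234 long gaps with a span of 221 Mb, or 9.26% of the gap sequence. The observed number was 2.68 times and the observed span 3.50 times as large. Counted with the long gaps included, gaps of at least 100 kb were rarer than under even placement (5658 against 7518). So were those of at least 250 kb (2677 against 3291). Gaps under 100 kb were correspondingly more numerous, since the total number of gaps is the same. Among long gaps, the ratio of observed to expected number grew with length. Gaps of 0.75 to 1 Mb numbered 281 against 168 expected, those of 1 to 1.5 Mb 223 against 59.9, and those of 1.5 to 2 Mb 70 against 5.03. There were 52 gaps of 2 Mb or more where the formula gives 0.517, and 13 of 3 Mb or more where it gives 0.00555. These 13 held 6.81% of the long-gap sequence.

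**Figure D1:**
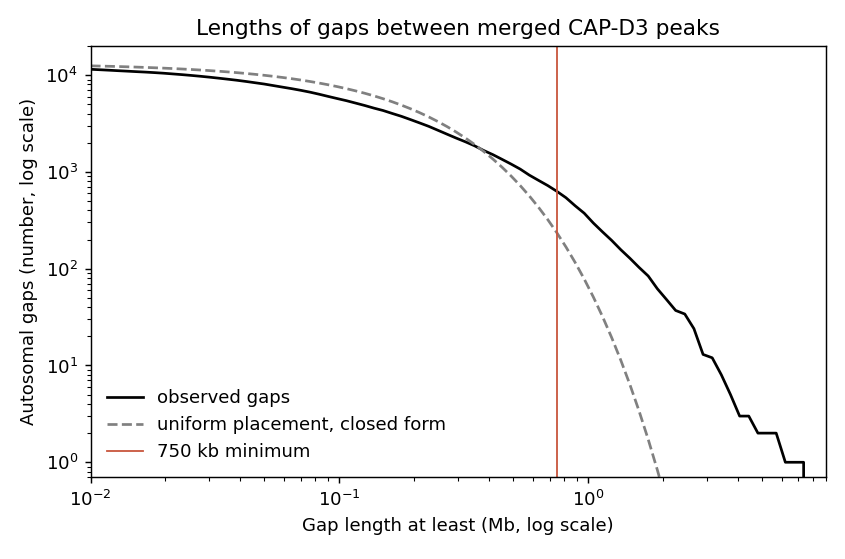
Number of autosomal gaps between merged CAP-D3 peaks that reach each length (x axis in Mb, both axes logarithmic), observed (solid) and for even random placement of the same peaks (dashed), with the 750 kb minimum as a vertical line. The observed curve lies under the dashed one at 100 kb (5658 against 7518 gaps) and above it at 750 kb (626 against 234).

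The excess in number was smaller in other sets of peaks. With both lists cut to the same number of highest-scoring peaks and then pooled, it was 2.06 times, with 682 long gaps against 331 expected. Gaps of 750 kb or more numbered 841 in the Rb+/+ list alone against 668 expected (1.26 times) and 887 in the RbΔL/ΔL list alone against 875 (1.01 times). Their spans were 1.69 times and 1.33 times the expected ones. With only peaks of a score of 100 or more in the pool, the 629 long gaps were fewer than the 846 expected, and the span was 0.988 times the expected one. With so few peaks the expected gaps are themselves long.

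The longest stretches lay on chromosome 7. The longest long gap, chr7:39056583-46540855, measured 7.48 Mb. On its left stood a peak found in both lists (score 298 in Rb+/+, 177 in RbΔL/ΔL) and on its right a peak of the RbΔL/ΔL list alone (score 58.5). The gaps just outside these border peaks were short, 43.1 kb on the left and 15.3 kb on the right. In the RbΔL/ΔL list alone this stretch was free of peaks over 7.48 Mb and in the Rb+/+ list over 7.66 Mb. The next 2 were chr7:6392067-12367989 (5.98 Mb) and chr7:20538091-25083942 (4.55 Mb).

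Further long gaps among the 10 longest lay on chromosomes 2, 14, 12, 8 and 1. They were chr2:174261042-178175575 (3.91 Mb), chr14:41823612-45680349 (3.86 Mb), chr14:82936174-86654071 (3.72 Mb) and chr12:21574636-25099830 (3.53 Mb). The last 3 were chr8:14968526-18490600 (3.52 Mb), chr12:17697826-21117407 (3.42 Mb) and chr1:84836240-88255259 (3.42 Mb). The 2 stretches of chromosome 12 lay close together, with gaps of 204 and 211 kb at their facing edges. Of the 20 border peaks of the 10 longest, 1 was found in both lists, 9 in Rb+/+ alone and 10 in RbΔL/ΔL alone, and 18 had scores under 100. Over all autosomal merged peaks, 7.91% were found in both lists and 10.1% scored 100 or more. The low numbers of shared and strong peaks here were near those shares. That each of these 10 stretches was free of peaks over at least 3.42 Mb in each list alone follows from pooling the lists. Of their 20 neighbouring gaps, 2 were themselves long.

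Every autosome carried long gaps, and on each the share of sequence in them exceeded the even-placement value. Numbers ran from 13 on chromosome 19 to 54 on chromosome 1, and the longest of each chromosome ran from 1.32 Mb (chromosome 19) to 7.48 Mb (chromosome 7). Per 100 Mb of gap sequence there were 19.5 long gaps on chromosome 11 and 32.8 on chromosome 17. Long gaps made up 41.1% of the gap sequence of chromosome 14, 40.2% of chromosome 7 and 39.4% of chromosome 8. At the low end were chromosomes 11 (21.0%), 10 (21.3%), 19 (23.4%), 13 (25.8%) and 9 (25.9%).

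The ratio of observed to expected number was largest on the peak-rich chromosomes 11 and 19, where the expected numbers are small. Their shares of sequence in long gaps were among the lowest, as given above. Chromosome 11 had 8.17 merged peaks per Mb and 23 long gaps where 2.08 were expected, and chromosome 19 had 7.74 per Mb and 13 where 1.33 were expected. Chromosomes 12 and 14, with 4.08 merged peaks per Mb each, had 35 each where 22.5 and 22.2 were expected. Chromosome 7 held 5.91% of the long gaps but 7.72% of their span, with 6.22% of the autosomal gap sequence. Its longest gap was 5.88 times the mean longest gap of even placement (1.27 Mb), the largest such ratio of the 19 autosomes. The smallest was 1.42 times, on chromosome 10. Across the 19 chromosomes, long gaps per 100 Mb fell with peak density (Spearman's rho -0.58). Both quantities come from the same peaks.

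**Figure D2:**
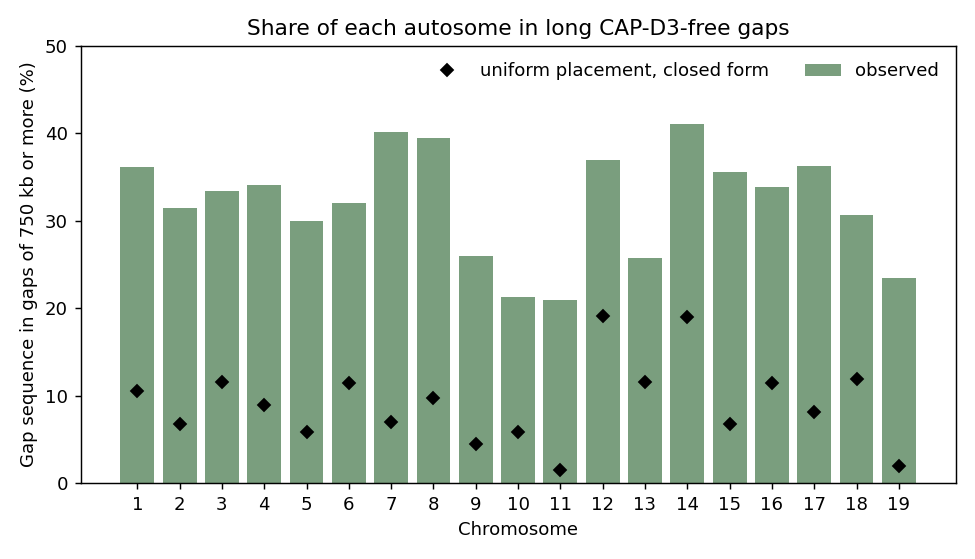
Share of the gap sequence of each autosome that lies in gaps of 750 kb or more (bars, percent, from 0) beside the value for even random placement (diamonds). The bars run from 21.0% on chromosome 11 to 41.1% on chromosome 14, and each lies above its diamond (1.54% on chromosome 11).

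Along the chromosomes, sequence in long gaps was more frequent toward the centromeric, low-coordinate end. When the stretch from the first to the last peak of each autosome was cut in 5 equal parts, long gaps covered 37.8%, 35.3%, 33.2%, 29.0% and 26.4% of the parts in order. Merged peak density rose in the same order, from 4.72 to 6.59 per Mb. The numbers of long gaps by midpoint were 134, 135, 130, 118 and 109, and the exact 95% intervals of the first and last shares (18.3 to 24.8% and 14.5 to 20.6% of the long gaps) overlapped. Intervals here cover counting error only. Stretches before the first or after the last peak are no gaps by the rule. Counted from 3 Mb on, 2 stretches before the first peak would have been long enough (the longer one 5.66 Mb), as would 1 stretch after the last peak (1.96 Mb).

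On the X chromosome, which the rule leaves out, 60 of 358 gaps were of 750 kb or more and spanned 56.8% of its gap sequence. Even placement gives 67.7 there, so the number on X was below that value. The longest gap on X measured 10.4 Mb. Copy number per cell was not corrected.

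Long gaps lay next to each other more often than a random order of the gaps gives. In 95 cases, 2 long gaps shared a border peak, against 30.8 for a random order of the gaps of each chromosome, a ratio of 3.09. The ratio was 2.12 in the Rb+/+ list alone, 1.79 in the RbΔL/ΔL list alone and 1.10 for peaks scoring 100 or more. A random order gives more pairs in those sets (92.5, 129 and 301), since a larger share of their gaps is long. Pairs cannot outnumber the long gaps, so the ratios there have a lower ceiling and cannot be set directly beside 3.09. Of the 626 long gaps, 169 (27.0%) had another at their side. The ratio decreased with distance along the order of gaps. It was 2.80 for long gaps with 1 gap between them, 2.03 for those 5 places apart, 1.52 at 10 places and 1.31 at 20 places.

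Gaps beside long gaps were also longer when they did not reach 750 kb themselves. The 1056 neighbouring gaps under 750 kb, counted once per side, had a median of 150 kb. The median of all 12554 autosomal gaps under 750 kb was 71.2 kb. Neighbour length rose with gap length over the whole range, from a median of 53.4 kb beside gaps under 50 kb to 177 kb beside gaps of 750 to 1000 kb and 294 kb beside gaps of 1.5 Mb or more. The share of neighbours that were long gaps rose from 2.55% to 13.6% and 18.4% over these 3 classes. The quartiles of these classes overlapped widely.

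**Figure D3:**
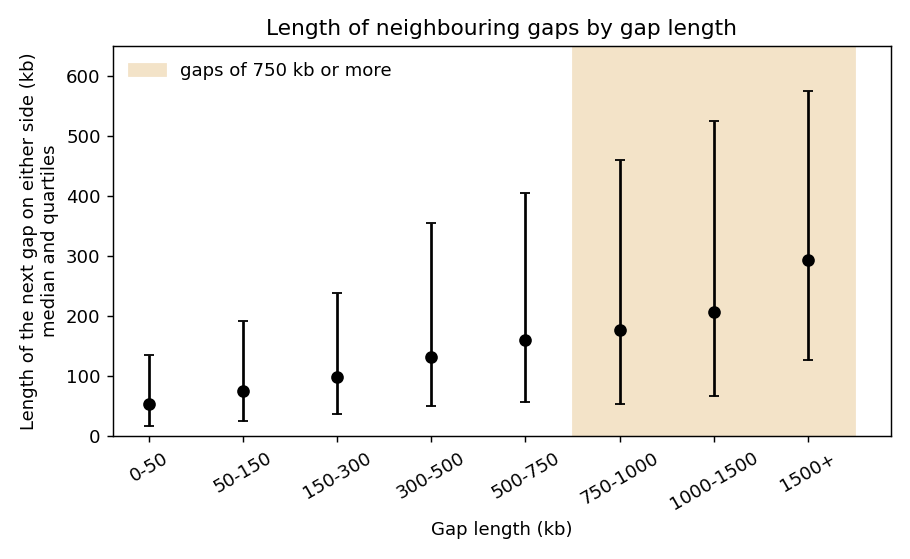
Length of the next gap on either side (y axis in kb, median with quartiles) for autosomal gaps in 8 classes of length (x axis in kb), with the classes of 750 kb or more shaded. The medians rise from 53.4 kb beside the shortest gaps to 294 kb beside gaps of 1.5 Mb or more.

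In 17 places, 3 or 4 long gaps followed each other with 1 merged peak between each pair. These runs held 55 long gaps and 38 inner peaks. The run with the largest span was chr15:16710777-24920503, where 4 long gaps of 1.17 to 2.56 Mb covered nearly all of 8.21 Mb. Its 3 inner peaks were all of the Rb+/+ list alone, with scores of at most 66.5. In the RbΔL/ΔL list this region lay inside the longest gap of that list, chr15:14117476-25025716 (10.9 Mb), which held 8 Rb+/+ peaks.

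The second run, chr14:107464397-115358693, had 4 long gaps over 7.89 Mb. It had 2 inner Rb+/+ peaks, the higher at 90.2, and 1 inner RbΔL/ΔL peak at 65.7. The other runs of the 5 largest spans were chr14:90812920-96037730 (3 long gaps over 5.22 Mb), chr4:35066805-40090022 (4 over 5.02 Mb) and chr5:25036786-29704371 (3 over 4.67 Mb). No inner peak of these 5 runs was found in both lists. Of all 38 inner peaks, 2 were, both in the run of chr9:15971762-20342184. There, 4 long gaps of 0.915 to 1.33 Mb surrounded peaks with scores up to 392 in Rb+/+ and 144 in RbΔL/ΔL. Over all autosomal merged peaks 7.91% were found in both lists, so few or none are to be expected among so few inner peaks.

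Some larger regions consisted mostly of long gaps. Of 220 complete windows of 10 Mb, counted from 10 Mb on, 44 had over 50% of their bases in long gaps and 10 had none. The median was 30.6%. The window from 40 to 50 Mb of chromosome 7 had 91.1% in long gaps and held 5 Rb+/+ and 4 RbΔL/ΔL peaks. Next were 10 to 20 Mb of chromosome 7 (80.4%), where 24 Rb+/+ and 15 RbΔL/ΔL peaks shared the rest, and 90 to 100 Mb of chromosome 14 (79.6%, 12 and 5 peaks). These windows were named after their values were seen.

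Beyond the border peaks, CAP-D3 peak density stayed below the chromosome mean for the 2 Mb examined. Going outward from a border peak in steps of 100 kb, away from its long gap and with any further long gaps included, merged peak density was between 4.26 and 4.96 per Mb in every step. The mean of 4.60 per Mb was 0.847 times the chromosome mean weighted by the long gaps (5.43 per Mb), about the level that even placement would give at every distance. Outward from peaks that border no long gap, density was 11.7 per Mb in the first 100 kb and fell to 6.51 per Mb at 1.9 to 2 Mb. Most peaks sit in peak-dense sequence, so this curve describes the rest and is no control.

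Counted over sequence outside long gaps, the 698 Mb within 1 Mb of a border peak held 6.88 merged peaks per Mb. The remaining 924 Mb held 8.33 per Mb, giving a ratio of 0.826 (exact 95% interval 0.797 to 0.857). The interval treats peaks as independent, which neighbouring peaks are not.

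**Figure D4:**
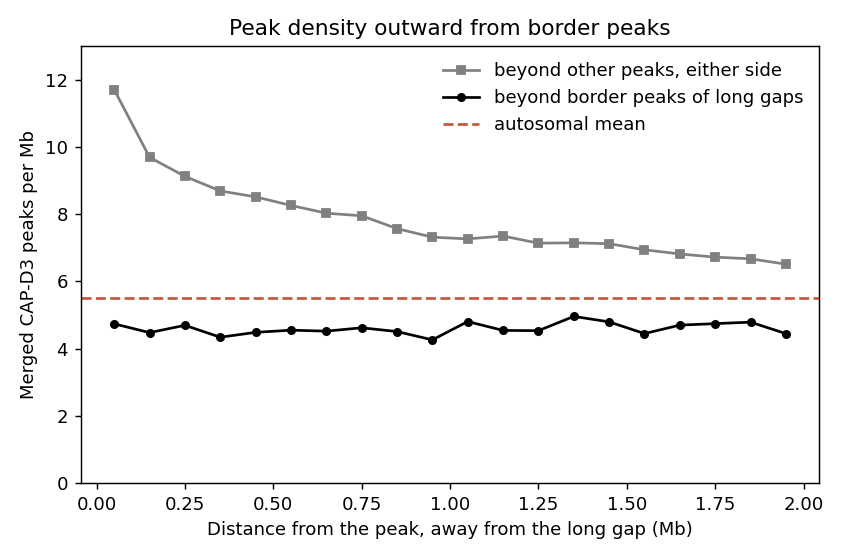
Merged CAP-D3 peaks per Mb (y axis, from 0) in steps of 100 kb outward from the border peaks of long gaps (black), outward from all other peaks on either side (grey), and the autosomal mean (dashed). The black points stay between 4.26 and 4.96 per Mb, below the mean of 5.51, while the grey points fall from 11.7 to 6.51.

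The peaks at the edges of long gaps included slightly fewer strong and shared ones than the other autosomal peaks. The 626 long gaps had 1157 distinct border peaks. Of these, 68 (5.88%, interval 4.59 to 7.39%) were found in both lists. Over all autosomal merged peaks the share was 7.91%, and among the 12042 peaks that border no long gap it was 8.10%. The difference was -2.23 percentage points (Newcombe interval -3.54 to -0.648). A score of 100 or more in either list was reached by 94 border peaks (8.12%), against 10.1% of all autosomal merged peaks and 10.3% of the others. That difference was -2.15 points (interval -3.69 to -0.352). At a score of 200 or more, the shares were 3.20% and 3.46%, with an interval of the difference from -1.20 to 0.954 points that includes 0. List membership and score did not enter the choice of the gaps, but peaks are not replicates, and no p-value is attached.

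Within each list alone the interval of this difference included 0. In Rb+/+, 73 of 683 border peaks (10.7%) and 947 of 7285 others scored 100 or more (interval of the difference -4.56 to 0.339 points). In RbΔL/ΔL it was 11.6% of 542 and 13.4% of 5733 (interval -4.35 to 1.34 points). Median scores were 60.03 at borders and 62.5 elsewhere in Rb+/+, and 63.4 and 65.7 in RbΔL/ΔL. Median widths of the merged peaks were 413 bp at borders (quartiles 349 and 467) and 427 bp elsewhere (quartiles 359 and 476).

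Both genotypes supplied borders, in about the proportions of their lists. Of the border peaks found in 1 list alone, 56.5% were Rb+/+ peaks, against 57.01% of such peaks elsewhere (interval of the difference -3.64 to 2.52 points). Among the 95 peaks with a long gap on both sides, 45 (47.4%) were of Rb+/+ alone, 46 (48.4%) of RbΔL/ΔL alone and 4 (4.21%) of both lists. Over all autosomal merged peaks the shares were 52.5%, 39.6% and 7.91%. The proportions thus leaned to RbΔL/ΔL here, but the exact intervals for Rb+/+ alone (37.0 to 57.9%) and RbΔL/ΔL alone (38.0 to 58.9%) include the values over all peaks. Of the long gaps, 271 (43.3%) had 1 border peak from each genotype alone, 175 (28.0%) had both from Rb+/+ alone and 109 (17.4%) both from RbΔL/ΔL alone. Over all autosomal gaps these shares were 41.4%, 27.5% and 16.1%. A shared peak with a peak of Rb+/+ alone bordered 6.23% of the long gaps and 8.51% of all gaps. With a peak of RbΔL/ΔL alone these shares were 4.95% and 5.76%. Only chr9:18096916-19426155 (1.33 Mb) had peaks found in both lists on both sides, or 0.160% of the long gaps against 0.774% of all gaps.

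The 100 highest-scoring peaks of each list bordered long gaps about as often as peaks in general. In the wider set scoring 100 or more, strong peaks were less frequent at borders, as given above. Of the 100 highest-scoring autosomal merged peaks, 9 in Rb+/+ and 10 in RbΔL/ΔL were border peaks, against 8.77% of all 13199. The highest-scoring site of both lists, on chromosome 2, lay between 2 of them. It consists of 3 merged peaks from 98502000 to 98507577, each found in both lists. Long gaps chr2:97319068-98501999 (1.18 Mb) and chr2:98507578-99642899 (1.14 Mb) flanked it on the left and right. Its right-hand peak scored 3227 in Rb+/+ and 3100 in RbΔL/ΔL, and its left-hand peak 1648 and 1863. Both outer ends of these gaps were weak RbΔL/ΔL peaks (scores 58.9 and 57.1). Enrichment by the antibody was not separated from background there, since no values of the input were analysed.

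The other border peaks with high scores ranked 23, 39 and 42 in the Rb+/+ list and 13, 27 and 29 in the RbΔL/ΔL list. The third strongest Rb+/+ border peak, chr17:39984120-39985904 (scores 801 and 570), stood left of a long gap of 0.982 Mb. It was followed in Rb+/+ by chr4:24423133-24423734 (713 and 384, beside 2.00 Mb) and chr4:120887504-120888024 (695 and 272, beside 1.68 Mb). In RbΔL/ΔL, the next in rank after the chromosome 2 site were chr6:103598987-103599368 (809, and 520 in Rb+/+) and chr4:32050593-32051265 (594, and 689 in Rb+/+). Among peaks isolated between 2 long gaps, chr13:65341874-65343125 had the highest Rb+/+ score (510, with 173 in RbΔL/ΔL), between gaps of 1.09 and 1.75 Mb. In RbΔL/ΔL it was chr5:69947774-69948567 (339, with 349 in Rb+/+), between gaps of 1.78 and 0.910 Mb.

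Because the pooled gaps use both lists, they cannot show whether the genotypes have the same peak-free regions. For that, long gaps were taken from 1 list and the peaks of the other list, which did not define them, were counted inside. The 841 long gaps of the Rb+/+ list (1210 Mb, 50.5% of the autosomal sequence) held 1477 RbΔL/ΔL peaks, or 1.22 per Mb, against 4.05 per Mb outside. The ratio was 0.302 (interval 0.284 to 0.320). The 887 long gaps of the RbΔL/ΔL list (1336 Mb, 55.7%) held 2270 Rb+/+ peaks, 1.70 per Mb against 5.37 outside, a ratio of 0.316 (interval 0.301 to 0.332). Peaks with a counterpart in the other list can hardly fall in its gaps. When such peaks were left out on both sides of the comparison, both ratios were 0.384 (intervals 0.361 to 0.408 and 0.365 to 0.403).

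Strong peaks of 1 genotype were rare in the long gaps of the other. Of RbΔL/ΔL peaks scoring 100 or more, 70 lay in Rb+/+ long gaps and 760 outside, a density ratio of 0.0904 (interval 0.0697 to 0.116). Of such Rb+/+ peaks, 93 lay in RbΔL/ΔL long gaps and 927 outside (0.0798, interval 0.0638 to 0.0988). Most strong peaks outside had a counterpart, all but 174 in RbΔL/ΔL and 238 in Rb+/+. Among strong peaks without one, the ratios were 0.389 (interval 0.290 to 0.517) and 0.287 (interval 0.222 to 0.369). The first interval includes the 0.384 of all peaks without a counterpart, and the second lies below it.

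Long gaps that were longer in 1 list had a lower peak density of the other. RbΔL/ΔL density in Rb+/+ gaps of 0.75 to 1 Mb was 0.524 times that outside and in gaps of 3 Mb or more 0.239 times, counting only peaks without a counterpart inside and outside. In the opposite direction the ratios were 0.501 and 0.207. Longer gaps were nevertheless less often without any such peak. Between the same classes that share fell from 30.5% to 6.38% of the Rb+/+ gaps and from 23.2% to 5.56% of the RbΔL/ΔL gaps. Density also decreased inward from the edges. Within 25 kb of an edge it was 0.751 times the outside level for RbΔL/ΔL peaks and 0.738 times for Rb+/+ peaks. Between 100 and 200 kb from the edge it was 0.417 and 0.432 times, and beyond 750 kb, which only gaps over 1.5 Mb reach, 0.247 and 0.206 times.

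**Figure D5:**
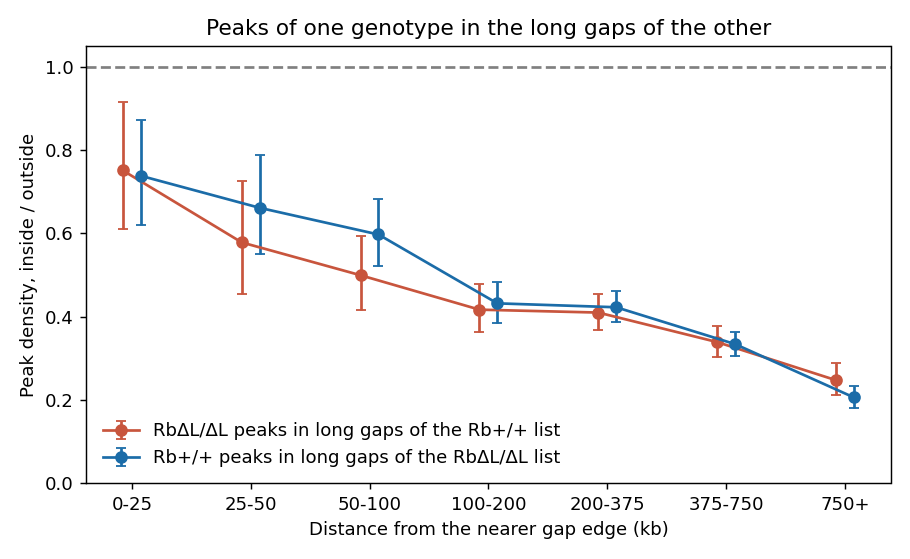
Density of CAP-D3 peaks of 1 genotype without a counterpart inside long gaps of the other list, divided by their density outside (y axis, 1 as dashed line), by distance from the nearer gap edge (x axis in kb), with exact 95% intervals. Both series fall from 0.751 and 0.738 within 25 kb of an edge to 0.247 and 0.206 beyond 750 kb.

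Many long gaps of 1 list were free of peaks in the other as well. No RbΔL/ΔL peak lay in 211 of the 841 Rb+/+ gaps (25.1%), where peaks at the autosomal mean density would leave 46.6 (5.54%) empty. Counting only peaks without a counterpart, 215 were empty against 71.6 (8.51%). No Rb+/+ peak lay in 140 of the 887 RbΔL/ΔL gaps (15.8%), against 22.5 (2.53%), and without counterparts 141 were empty against 34.2 (3.86%). Measured in bases, the 2 sets of long gaps had 903 Mb in common, which was 74.6% of the Rb+/+ set and 67.6% of the RbΔL/ΔL set and 1.33 times the 679 Mb that independent sets of these sizes would share. Of the sequence in Rb+/+ gaps of 3 Mb or more, 89.0% lay in RbΔL/ΔL long gaps (57.2% if independent). In the opposite direction it was 84.0% (52.5%).

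The sets were not identical. The longest gap of the Rb+/+ list, chr1:25674601-33727152 (8.05 Mb), held 9 RbΔL/ΔL peaks with scores of at most 95.3, and the longest of the RbΔL/ΔL list was split by 8 Rb+/+ peaks with scores of at most 66.5. A pooled long gap lay in a Rb+/+ gap of median 1.43 Mb and in a RbΔL/ΔL gap of median 1.64 Mb. The own-list gap was over 1.5 times as long as the pooled one for 204 long gaps (32.6%) in Rb+/+ and 244 (39.0%) in RbΔL/ΔL. Fewer RbΔL/ΔL peaks were listed. With the Rb+/+ list reduced to its 6437 highest-scoring peaks, to match, it had 896 long gaps against 887 in RbΔL/ΔL. The order of the spans then turned, to 1408 Mb in Rb+/+ and 1336 Mb in RbΔL/ΔL, where the full Rb+/+ list had 1210 Mb. The cut removed only the lowest-scoring Rb+/+ peaks, while the RbΔL/ΔL list kept all its peaks down to 50.02. The lists thus matched in number but not in lowest score. With 1 library per genotype, it is not known whether any of these differences exceeds the spread between libraries of the same genotype, and no p-value was computed.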

How the data were processed

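CAP-D3 ChIP and input libraries came from mouse embryonic fibroblasts. The submitters' processing notes name build mm9 and the tools Bowtie 1.0 and MACS 1.4.2. Their settings, the control given to the caller and the handling of duplicates and repeats are not stated there, and each can create or remove weak peaks and so close or open a gap. The authors deposited 1 list of peaks per ChIP library, each peak with positions and a score from their caller, so peaks were called per sample. What the score measures is not stated, so it was used only to rank and filter peaks within a list.

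Positions were checked against mm9 lengths in GenomeInfoDb 1.38.1. Peaks that overlapped by at least 1 bp were merged in Python 3.11.15 (numpy 2.4.6, pandas 2.3.3, scipy 1.17.1). Gaps ran between consecutive merged peaks of chromosomes 1 to 19, and those of 750 kb or more were kept. Even-placement and random-order values are closed-form means for each chromosome. Shares have exact (Clopper-Pearson) and density ratios exact conditional binomial intervals at 95%, for counting error only. The code was tested on simulated lists. Regions named in the text are the 10 longest gaps, runs of 3 or more (the 5 largest spans in full), the 5 highest-scoring border peaks of each list, the highest-scoring isolated peak of each list and gaps with shared peaks on both sides. The gaps, groups and measures were chosen with earlier results of these data known. Alternatives were other length minimums, merging within 10 kb, equal or separate lists, a score of 100 or more, and counts without gap ends or without peaks that have a counterpart.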

Additional observations from a re-analysis of the deposited data

How the results depend on the processing

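The 8 results were recomputed under alternative settings, giving 47 alternative values. Of these, 24 were close (within 1.5 times for numbers, spans and pairs, within the 95% interval for shares and ratios) and 23 moved. Raw numbers were compared, so the 887 long gaps of the RbΔL/ΔL list alone and the 629 at scores of 100 or more counted as close. Their ratios to even placement were 1.01 and 0.743, against 2.68 in the main setting. Raw numbers, spans and pairs have no direction. Against even placement the excess turned with peaks scoring 100 or more, to 0.743 times the expected number and 0.988 times the expected span. The lower shares of shared and strong peaks at borders kept their direction under other length minimums, equal lists and merging within 10 kb (differences of -2.22 to -5.49 and -2.31 to -2.90 points). A minimum of 500 kb gave 1165 long gaps, 257 adjacent pairs and a Rb+/+ density ratio in RbΔL/ΔL gaps of 0.299. A minimum of 1 Mb gave 345 gaps, 35 pairs and a flank density ratio of 0.757. The Rb+/+ list alone gave a span of 1210 Mb and 196 pairs (92.5 in random order), the RbΔL/ΔL list alone 1336 Mb and 230 pairs (129), and peaks scoring 100 or more 2156 Mb and 332 pairs (301). Fewer peaks make longer gaps by construction. Merging within 10 kb raised the share of border peaks in both lists to 8.75%, since a merged cluster more often holds peaks of both. It left 626 long gaps, with 328 expected under even placement, a ratio of 1.91 against 2.68. For RbΔL/ΔL peaks in Rb+/+ gaps, and then for the exchanged lists, the density ratio was 0.0904 and 0.0798 with scores of 100 or more, 0.384 and 0.384 without counterparts, and 0.275 and 0.281 without the 100 kb at each end. Settings added after seeing the data gave 0.389 and 0.287 (scores of 100 or more without counterparts) and 0.352 and 0.343 (without counterparts and gap ends). No paired analysis was possible because there is 1 library per genotype. For the same reason none could be left out. Unknown read depth, mappability and assembly gaps limit what an absence of peaks shows.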
